A study of Mus musculus with 2 samples.

Results

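These fibroblasts were stromal cells of the mouse uterus picked by expression of Cyp26b1, Dio2, Prrx2 and 4 further genes, and 354 of the 372 found came from the conditional knockout library. A cell counted as stromal when its barcode held at least 500 genes and at most 20% mitochondrial UMIs (unique molecular identifiers, 1 per captured transcript). Col1a1, Col1a2, Col3a1, Dcn and Lum, genes of the collagenous matrix, also had to hold at least 0.5% of its UMIs, with no UMI of the leukocyte gene Ptprc or the epithelial gene Epcam. A stromal cell was a member when at least 3 of 7 rule genes were detected: Cyp26b1, Prrx2, Dio2, P2ry14, Nrg2, Aldh1a2 and Saa3. Members made up 372 of the 8603 cells that passed the gene and mitochondrial limits. The rule itself used measured values, so the levels of the 7 rule genes below are a description of what was selected and carry no test.

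The study profiled whole uteri of female mice aged 6 months by droplet single-cell RNA sequencing after a 5 hour collagenase digestion. The control library came from mice with floxed alleles of Prickle1 (Prickle1 f/f), and the conditional knockout library, called cKO here, from mice with the same floxed alleles plus an iCre recombinase driven by Ltf (Ltf-iCre in the series text, Ltf-cre in the title). Each library pooled 3 mice, and a separate genotype label calls both samples C57BL/6J wild-type, which differs from their titles. Ltf, the lactotransferrin gene, is known as an estrogen-responsive gene of the uterine epithelium, and recombination in stromal cells was not measured. The product of Prickle1 acts in planar cell polarity, and 3-prime reads do not show whether the floxed part of the gene was deleted. Levels are given in CPM, the UMIs of a gene per 1000000 UMIs of the summed cells, a scale that compares the same gene between groups and not different genes. Prickle1 stood at 11.3 CPM in members, 7.56 CPM in other cKO stromal cells and 4.68 CPM in control stromal cells. With 1 library per group, genotype, animals and library cannot be told apart, cells are not replicates, and no p-value is given. Intervals cover counting error only, at the 95% level.

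Retinoic acid is made from retinol in a pair of oxidation steps, the last by aldehyde dehydrogenases such as Aldh1a2, and is destroyed by the Cyp26 cytochromes, so a tissue that holds both sets its level locally. Dio2 serves another ligand of nuclear receptors: it converts thyroxine to the active thyroid hormone inside the cell. In the uterus, stromal fibroblasts under the epithelium carry estrogen and progesterone receptors and answer these hormones with secreted signals, and with decidualization when an embryo implants.

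Members made up 23.7% of the 1491 cKO stromal cells (354 cells, exact binomial interval 21.6% to 26.0%) and 2.32% of the 775 control stromal cells (18 cells, interval 1.38% to 3.65%). The share was 10.2-fold higher in the cKO library, with an interval of 6.37 to 17.4. Stromal cells themselves were 30.1% of cKO cells and 21.2% of control cells. Depth moved with this difference: the median stromal cell held 14345 UMIs in the cKO library and 8280 in the control library. Among stromal cells with at least 10000 UMIs, members were 314 of 977 (32.1%) in the cKO library and 12 of 337 (3.56%) in the control library, a 9.03-fold difference. When every cell was thinned to 3000 UMIs before the rule genes were counted, leaving out 180 shallower cKO cells and 254 control cells, the shares were 12.8% and 0.768%, a 16.7-fold difference. With a UMI of at least 2 rule genes in place of 3, the shares were 38% and 8.26%. These are counts of the genes that chose the cells, so they describe the selection in each library and support nothing.

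The threshold lay on a slope and not in a gap. In the cKO library, 551 stromal cells had none of the rule genes, 373 had 1, 213 had 2, 126 had 3, 102 had 4, 74 had 5, 50 had 6 and 2 had all 7. In the control library the same numbers were 525, 186, 46, 12, 4, 2, 0 and 0. Cells just outside the threshold, with 2 rule genes, held Dio2 at 398 CPM and Aldh1a2 at 167 CPM, and those just inside, with 3, at 727 and 299 CPM. Median depth was also higher along this count, from 11261 UMIs in cKO cells with none to 17333 with 3 and 26984.5 with 6.

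**Figure D1:**
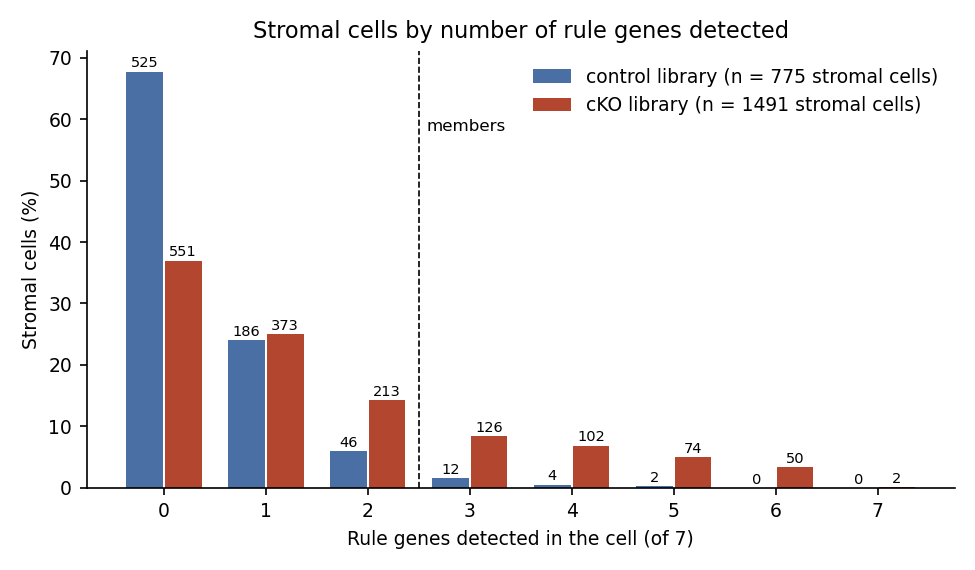
Percentage of stromal cells (y axis) by the number of the 7 rule genes detected in the cell (x axis), for the control library (blue, 775 cells) and the cKO library (red, 1491 cells), with the number of cells above each bar. Members lie right of the dashed line: 354 cKO cells and 18 control cells.

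The label names 3 genes, but the members were unequal in them. A UMI of at least 1 of Cyp26b1, Dio2 and Prrx2 was found in 349 of the 354 cKO members (98.6%), and all 3 were found in 58 (16.4%). The commonest combination was Dio2, P2ry14 and Aldh1a2 alone, in 70 cells (19.8%), followed by the same 3 genes with Prrx2 in 66 cells (18.6%). The 6 rule genes other than Saa3 came together in 40 cells (11.3%). Cyp26b1 was therefore a marker of a minority and Aldh1a2, Dio2 and P2ry14 were the genes that nearly all members shared.

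Among the enzymes, Aldh1a2 was found in 95.8% of cKO members, at 600 CPM against 58.4 in the other stromal cells of the library. Its level was 494 CPM in the 18 control members and 19.5 in other control stromal cells. The gene spans chr9:71215789-71296243, plus strand, in GRCm38, the build of all gene positions here. Dio2 (chr12:90724552-90738438, minus strand) was found in 92.1% of cKO members at 913 CPM, against 151 in other cKO stromal cells. In control members Dio2 stood at 578 CPM, of which 1 cell gave 60.0%, and in other control stromal cells at 69.2. Cyp26b1 (chr6:84571414-84593908, minus strand) was found in 26.8% of cKO members at 183 CPM, against 9.57 in the other stromal cells. The 95 members that held it had a median of 4 UMIs and a highest of 153. Only 7 Cyp26b1 UMIs were counted in control members, or 24.5 CPM, in 3 cells.

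Among the receptors and ligands, P2ry14, a receptor for UDP-sugars (chr3:59113855-59153618, minus strand), was found in 91.8% of cKO members, at 445 CPM against 42.6. All 18 control members held it, at 378 CPM. Nrg2, a neuregulin that signals through ErbB receptors, was found in 35.6% of cKO members at 42.5 CPM, against 1.14 in other cKO stromal cells. Control members held 6 Nrg2 UMIs, 1 in each of 6 cells. Prrx2, a homeodomain transcription factor of mesenchyme (chr2:30834972-30881251, plus strand), was found in 62.7% of cKO members at 115 CPM, against 6.69. Control members reached 28 CPM, from 8 UMIs in 4 cells.

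Saa3, an acute phase apolipoprotein (chr7:46711998-46715700, minus strand), stood apart from the rest of the rule. It was found in 37 cKO members (10.5%) at 301 CPM over all members, against 14.5 in other cKO stromal cells, and 1 cell gave 17.6% of its 2637 UMIs. In the control library a single member held all 205 Saa3 UMIs. Free RNA held these genes too: cKO barcodes with at most 100 UMIs held Dio2 at 166 CPM, Aldh1a2 at 122, P2ry14 at 72.2 and Cyp26b1 at 35.9. As a background, a UMI was found in 1.97% of cKO leukocytes for Dio2, 5.60% for Aldh1a2, 10.4% for P2ry14, 0.893% for Cyp26b1, 0.715% for Prrx2, 0.536% for Nrg2 and 1.01% for Saa3, at a median of 5500 UMIs per leukocyte against 19836 per member. Thinned to 3000 UMIs, Dio2 was found in 59.7% of members, 14.3% of other stromal cells and 0.538% of leukocytes, and Aldh1a2 in 65.7%, 12.8% and 3.03%.

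Summed over all stromal cells, each of the 7 genes was higher in the cKO library than in the control library. The ratio was 7.13 for Aldh1a2 (interval 6.34 to 8.05), 6.43 for Cyp26b1 (5.22 to 8.01) and 6.32 for Prrx2 (4.88 to 8.34). It was 4.96 for Dio2, 3.71 for P2ry14, 7.40 for Nrg2 and 4.09 for Saa3. In bulk sums of this kind, more cells with a gene and more RNA per cell cannot be told apart.

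**Figure D2:**
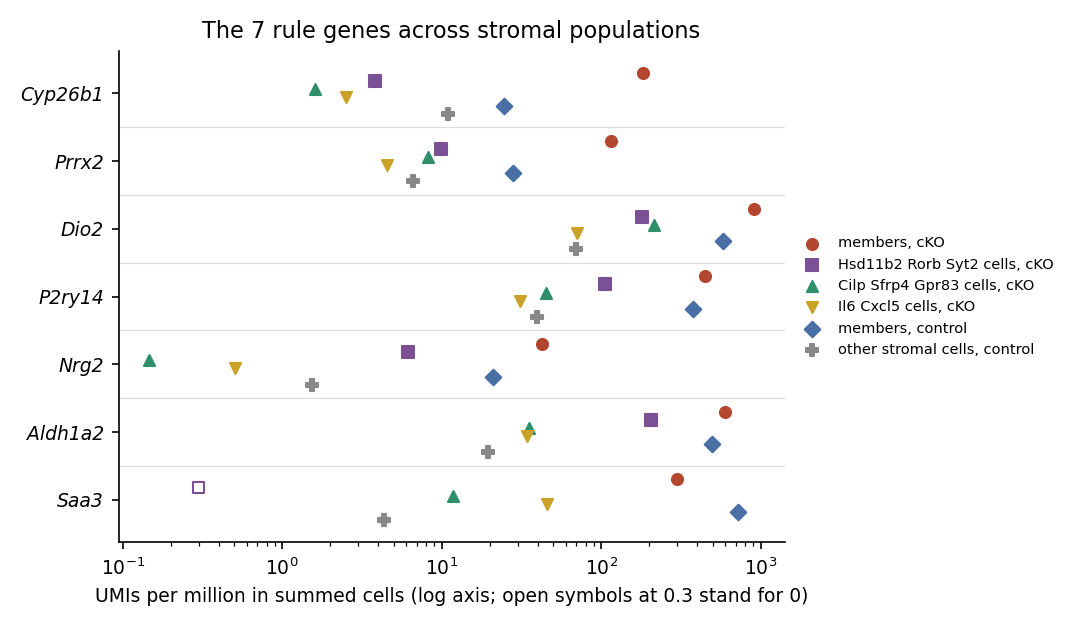
Level of the 7 rule genes in CPM of summed cells (x axis, logarithmic) in 6 stromal populations, one symbol each. Members of the cKO library (red circles) lie highest for every gene except Saa3, whose control value rests on 1 cell, and an open symbol stands for 0.

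Other stromal populations of the cKO library shared some rule genes and not others. Stromal cells with at least 2 of Hsd11b2, Rorb and Syt2, left without members, numbered 88 and held Aldh1a2 at 205 CPM, Dio2 at 179 and P2ry14 at 106, but Cyp26b1 at 3.83 and Prrx2 at 9.96. Of the members, 195 (55.1%) met this second definition too. The 363 non-member cells with at least 2 of Cilp, Sfrp4 and Gpr83 held Dio2 at 216 and Aldh1a2 at 35.2 CPM, and 90 members (25.4%) met their definition. The 114 non-member cells with both Il6 and Cxcl5 held Dio2 at 70.7 and Aldh1a2 at 34.3 CPM, and 13 members (3.67%) had both genes. The 40 non-member cells with at least 2 of Inmt, Myoc and Scara5 had the smallest overlap, with 5 members (1.41%) meeting their definition. Members overlapped the Hsd11b2, Rorb and Syt2 cells most of these 4, in a count that depends on depth.

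The fibroblast label was checked against markers that the rule did not use. All 10 fibroblast markers were measured, 8 of them within 2-fold of the other stromal cells, with Pdgfra at 589 CPM against 673, Col6a1, found in every member, at 2164 against 1559 and Vim at 1043 against 941. The other 2, Serping1 and Fbln1, were lower (20%, against 6.93% of all genes compared below). Of 7 markers of endometrial stroma, Hoxa10, Hoxa11, Hand2 and Wnt5a (57.1%, against 5.55% of all genes) were at least 2-fold higher in members and none lower. Of the markers of other cell types, the 6 mesothelial ones summed to 4.57 CPM in cKO members against 57.6 in other cKO stromal cells, the 8 epithelial ones to 4.23 against 33.8 and the 8 leukocyte ones to 8.0 against 27.7, where the rule itself held Epcam and Ptprc at 0. Lymphatic endothelial markers summed to 5.25 against 18.9, with Mmrn1 at 0. Blood endothelial markers summed to 45.1 against 76.0, although Cdh5, an endothelial cadherin, was higher (5.48 against 1.87). The 8 smooth muscle markers summed to more in members, 932 against 760 CPM, through Des (713 against 349, a log2 ratio of 0.80 with rule genes counted at 3000 UMIs), an intermediate filament gene, while 5 of the 8 were lower, Acta2 among them (36.4 against 130, within 2-fold with 2 rule genes, at a log2 ratio of -0.30). A doublet score above 0.25 was given to 1 of the 354 members. The control members were less uniform. Their mesothelial markers summed to 413 CPM against 64.3 in other control stromal cells, and 117 of the 118 UMIs lay in 2 of the 18 cells. With at least 10 mesothelial UMIs as a limit, 2 control members and 1 cKO member carried these markers. Without such cells, members were 2.11% of control and 24.1% of cKO stromal cells.

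Against the other 1137 stromal cells of the cKO library, 10942 genes had at least 50 UMIs over both groups. Of these, 607 were at least 2-fold higher in members, which is 5.55% of the genes, and 758 at least 2-fold lower, which is 6.93%. The median gene differed by 0.04 on the log2 scale. Members were deeper than the cells they were set against, with a median of 19836 UMIs and 4493.5 genes against 12524 UMIs and 3418 genes, and their median mitochondrial share was 3.92% against 2.75%.

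Among the 14 genes with the highest ratios by the naming rule were the transcription factors Foxl2, Rorb and Lef1. Foxl2, a forkhead factor of granulosa cells and of uterine stroma, stood at 127 CPM in members against 15.8 (8.04-fold, interval 6.98 to 9.29). It was found in 67.8% of members and 10.2% of the others, and at 3000 UMIs per cell in 26.6% and 5.20%. Among control cells, Foxl2 stood at 140 CPM in members and 9.20 in other stromal cells. Granulosa cells of the ovary express Foxl2 too, and the 6 markers of ovary and oviduct summed to 13.4 CPM in members and 45.3 in the others, with Cyp17a1 and Pax8 at 0 in members. Rorb, an orphan nuclear receptor, stood at 159 against 21.2 (7.53-fold) and Lef1, a DNA-binding partner of beta-catenin, at 14.1 against 1.27 (11-fold). Rorb also helped to define one of the neighbouring populations above, and its level in those 88 non-member cells was 189.

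Hand2, which in uterine stroma acts downstream of the progesterone receptor, stood at 51.6 CPM in members against 8.23 (6.27-fold, interval 5.13 to 7.72). Its antisense neighbour Hand2os1 stood at 37.2 against 4.15 (8.97-fold, interval 6.82 to 11.97). The 2 genes leave opposite strands of chromosome 8 from starts 124 bases apart in RefSeq, and the window is shown because both were higher in members. The bases from the Hand2os1 start to the Hand2 start are in capitals, in the RefSeq window chr8:57320733-57321032 of GRCm38.p6, plus strand.
Hand2 window: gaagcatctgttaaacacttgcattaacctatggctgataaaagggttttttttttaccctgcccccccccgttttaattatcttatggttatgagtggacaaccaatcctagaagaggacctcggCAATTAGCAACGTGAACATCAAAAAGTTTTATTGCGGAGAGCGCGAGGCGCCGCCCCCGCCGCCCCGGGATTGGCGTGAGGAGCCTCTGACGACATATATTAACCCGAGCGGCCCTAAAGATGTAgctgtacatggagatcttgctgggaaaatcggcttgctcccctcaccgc
In the GENCODE annotation the Hand2os1 locus also overlaps Hand2 on the opposite strand. It reaches base 57324233 of the chromosome and leaves out the end of Hand2, which lies at base 57324633. Whether the counting used strand is not given in the sources used here, so reads of the 2 genes within the overlap cannot be told apart with certainty. Where the counted reads fell within the genes was not tested. Hand2 was detected in 42.9% of members and Hand2os1 in 38.4%. Within the members, both were higher in the cluster described below, Hand2 at 79.9 against 22.0 and Hand2os1 at 63.8 against 9.37 CPM.

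Of 28 mesenchymal transcription factors measured, 6 (21.4%) were at least 2-fold higher and 7 (25%) at least 2-fold lower, against 5.55% and 6.93% of all genes, with a median log2 ratio of 0.02. Besides Foxl2 and Hand2, the higher ones were Osr1 (22.6 against 6.09), Runx2 (37.2 against 14), Tcf4 (1966 against 820) and Snai1 (88.2 against 41.9), where the calls of Runx2 and Snai1 ended under at least 1 alternative (log2 ratios 0.79 and 0.67). Gata6 was lower (5.60 against 41.6) and so was Sox9 (5.83 against 28.5). Zfpm2, a cofactor of GATA factors, was among the 10 genes with the lowest ratios by the naming rule, at 1.6 against 20.2. Prrx1, the close relative of the rule gene Prrx2, stood at 313 against 397, within 2-fold. Prrx2 helped to choose the members, so no contrast between the 2 genes is drawn from this. Of 13 Hox genes measured, Hoxa10 (140 against 54.1) and Hoxa11 (63.1 against 15.6), the 2 HoxA genes required in the uterus for fertility, were higher. Hoxc6, Hoxc8 and Hoxc10 were lower, all under 5 CPM in both groups, the Hoxc10 call ending in cells with at least 10000 UMIs (log2 ratio -0.36), and Hoxd11 stood at 203 against 150.

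The progesterone and estrogen receptors were present in cKO members at levels near those of other cKO stroma. Pgr was found in 99.2% of members at 838 CPM against 730, and Esr1 in 89.5% at 202 against 157. Hsd11b2, which inactivates glucocorticoids, was 3.09-fold higher (265 against 85.9). Of 13 genes of this list measured, 2 (15.4%) were at least 2-fold higher, Hsd11b2 among them, and Star, a cholesterol transporter, was the 1 lower (7.69%). Against 5.55% and 6.93% of all genes, counts this small are near the background and nothing is read from them about the list. In the control library Hsd11b2 stood at 287 CPM in members and 18.8 in others, and Pgr at 511 and 427. Esr1 was 2.07-fold higher in control members (186 against 89.4, interval 1.54 to 2.74), with 15 of its 53 UMIs in the cells with mesothelial markers. Of 19 decidualization genes, Hand2, Hoxa10, Hoxa11 and Htra1 were higher and Alpl, Il11, Ptgs2 and Fst lower. That is 21.1% in each direction, against 5.55% higher and 6.93% lower over all genes. Bmp2 and Wnt4, signals of early decidua, stood at 72.3 against 49.7 and 42.0 against 21.3. The calls of Htra1, Alpl and Fst ended under at least 1 alternative, with log2 ratios of 0.98, -0.69 and -0.92 there.

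The retinoid genes outside the rule did not go one way. Of 16 measured, 2 (12.5%) were at least 2-fold higher and 3 (18.8%) lower, and their median log2 ratio was -0.03. Over all genes 5.55% were higher and 6.93% lower, so counts this small are near the background and nothing is read from them about the list. Stra6, the membrane receptor that takes up retinol, stood at 10.4 CPM in members against 1.67 (6.21-fold, interval 3.95 to 10.1), and Rarg, a retinoic acid receptor, at 13.5 against 6.69, just past 2-fold and within it when cells were thinned (log2 ratio 0.74). Rdh10, which carries out the first oxidation of retinol, was lower at 54.9 against 189, and Aldh1a3, a sister enzyme of Aldh1a2, was lower at 3.08 against 27.5. Tgm2, a gene that retinoic acid induces in many cells, stood at 310 against 183. Dhrs3 and Adh1 lay within 2-fold as well. Beside the rule gene Aldh1a2, the uptake receptor was thus higher in members and the enzyme of the first step lower.

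Rarb and Cyp26a1, the textbook direct targets of retinoic acid receptors, were hardly detected: Rarb had 2 UMIs in members and 0 in the other stromal cells, and Cyp26a1 had 1 in each. Their promoters are shown because they carry the classic response element, a direct repeat of a 6-base half-site spaced by 5 bases (capitals), in RefSeq windows of GRCm38.p6. Rarb lies at chr14:16575493-16575549 on the minus strand, and its half-sites begin 53 and 42 bases before the start. Cyp26a1 lies at chr19:37697756-37697812 on the plus strand, with half-sites 32 and 21 bases before the start, read on the opposite strand.
Rarb: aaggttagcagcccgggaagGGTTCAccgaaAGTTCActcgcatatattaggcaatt
Cyp26a1: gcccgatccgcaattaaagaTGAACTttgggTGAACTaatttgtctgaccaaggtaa
The half-site AGGTCA and its variants AGTTCA with GGTTCA and also GGGTCA were searched on both strands, and 43.7% of the 32851 promoter windows of 300 bases held at least 1. A direct repeat spaced by 1, 2 or 5 bases was found in 0.588% of windows. Of the 7 rule genes, 6 had a window, and 1 window per gene was searched, although P2ry14 had 4. These letters were in none of the 6 searched.

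Of 11 listed genes outside the rule that respond to or handle thyroid hormone, 6 were measured, and none of them passed 2-fold in either direction. Over all genes 5.55% were higher and 6.93% lower, so a count of 0 in 6 is near the background and nothing is read from it. Klf9, a thyroid hormone target, stood at 546 CPM in both groups. Dio3, the enzyme that inactivates the hormone, stood at 23.5 against 25.6. Of 11 further purinergic genes, 1 (9.09%, against 5.55% of all genes), the ectonucleotidase Entpd1, was higher (25.2 against 8.90). Lower were 4 (36.4%, against 6.93%), among them Ugdh, which uses UDP-glucose to make hyaluronan precursors (317 against 1071). The neuregulin Nrg1 stood at 524 against 418, while the receptor Egfr was lower (128 against 267, within 2-fold when cells were thinned, at a log2 ratio of -0.75). Erbb3 and Erbb4, which bind neuregulins, had 3 and 1 UMIs in all members.

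Secreted signals differed by family. Among 18 Wnt ligands and modulators, Wnt5a, a ligand of the non-canonical pathways, stood at 144 CPM against 25.8 (5.59-fold, interval 4.99 to 6.29). Control members held Wnt5a at 291 and other control stromal cells at 17.4, but other genes of the list went the other way there: Rspo1, lower in cKO members, stood at 84.0 against 9.84, with 21 of its 24 UMIs in the 2 cells with mesothelial markers, and Dkk3, higher in cKO members, at 7.0 against 23.9. Wnt16 (18.4 against 2.41), Dkk2 (23.1 against 6.09) and Dkk3 (32.8 against 12.3) were higher in cKO members too. Sfrp1, Sfrp4, Frzb and Rspo1 were lower, with Sfrp4 at 147 against 382. That is 4 genes (22.2%) in each direction, against 5.55% higher and 6.93% lower over all genes. The calls of Dkk3, Sfrp4, Frzb and Rspo1 each ended under at least 1 alternative, with log2 ratios of 0.74, -0.66, -0.73 and -0.66 there. The 12 planar cell polarity genes measured all lay within 2-fold, a count near the background given above, among them the Wnt5a receptor Ror2 at 282 against 176. Igf1, a growth factor that uterine stroma sends to the epithelium, stood at 1031 CPM against 375 (2.75-fold), and Igfbp4 at 449 against 160, while Igfbp3 was lower at 39.8 against 312. Sema3a, a repulsive guidance cue, was the single gene of 26 in the list of FGF, PDGF, HGF and VEGF signals that was higher (93.4 against 17.1). That is 3.85% of the list, against 5.55% of all genes. Of these 26, 13 (50%, against 6.93% of all genes) were lower, among them Vegfa (305 against 952), Fgfr1 (252 against 780) and Slit3 (43.2 against 160). Among BMP and activin genes, 3 of 22 (13.6%, against 5.55% of all genes) were higher, Smoc1 at 55.5 against 10.8 among them. Another 5 (22.7%, against 6.93% of all genes) were lower, with Nog, a BMP antagonist, at 50.9 against 204. Gli1 (8.80 against 3.68) and Gli2 (11.1 against 3.95), the transcription factors of Hedgehog signalling, were higher, and the Hedgehog co-receptors Gas1, Cdon and Boc lower. The Gli1 call ended when the rule genes were counted at 3000 UMIs per cell (log2 ratio 0.23 against 1.25), as did that of Cdon (-0.84 against -1.81), and the Gli2 call with a matrix minimum of 1% (0.94 against 1.48). In the control library Gas1 was higher in members (581 against 153), and so was Cdon (52.5 against 20.3), with 115 of 166 and all 15 of their UMIs in the cells with mesothelial markers.

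Most cytokine, complement and acute phase genes, which recruit and instruct immune cells, were lower in members. Of 31 measured, 25 (80.6%, against 6.93% of all genes) were at least 2-fold lower in members and Saa1 was higher, with a median log2 ratio of -1.79 against 0.04 over all genes. Il6 stood at 32.6 CPM in members against 837 (25.7-fold lower, interval 22.9 to 29.0), and C3 at 76.9 against 629 (8.18-fold lower). Cxcl1 stood at 209 against 1200.1, Lif at 249 against 1222 and Ccl2 at 1146 against 3445, the last within 2-fold with a matrix minimum of 1% (log2 ratio -0.96). The chemokine Cxcl14 was at 27.1 in both groups. Il6 was found in 13% of members and 35.9% of the others, and at 3000 UMIs per cell in 4.29% and 25.9%. Cell-free barcodes held Il6 at 221 CPM. In the control library Il6 was also lower in members (24.5 against 200 CPM, all 7 UMIs in 1 cell), but C3 was not (585 against 376). The 2 cells with mesothelial markers held 160 of the 167 C3 UMIs of control members, and without such cells C3 stood at 29.5 against 352. The chemokine Ccl8 also went the other way: it stood at 1.71 against 8.10 CPM in the cKO library and at 119 against 20.3 in the control library (5.86-fold higher, interval 3.92 to 8.53). With 2 rule genes its log2 ratio in the cKO library was -0.12 in place of -2.20. None of its 34 UMIs in control members lay in the mesothelial-marked cells, while 13 lay in the 1 member with Saa3, without which it stood at 77.4. Ccl7 stood at 307 against 1122 in the cKO library and near parity in the control library (788 against 826). Of the 25 genes of this list that were lower in cKO members, 24 were measured in the control library, where 9 were lower in members, with 14.1% of all genes tested lower there. Immediate early and heat-shock genes, which dissociation can induce, moved with the cytokine genes in part: of 26 measured none was higher and 6 (23.1%) were lower, against 6.93% of all genes. These were Nr4a2 (82.9 against 230), Ier3 (264 against 673), Egr2 (19.1 against 44.9), Socs3 (31.1 against 69.0), Nr4a1 (121 against 246) and Myc (119 against 239), the last 2 just past 2-fold. The calls of Egr2, Nr4a1 and Myc ended under at least 1 alternative. The other 20 lay within 2-fold, with Fos at 475 against 541 and Hspa1b at 680 against 683, where 1 cell gave 26.2% of the Hspa1b UMIs of members. The part of dissociation in the lower cytokine levels was not tested.

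Matrix genes outside the rule went both ways. Of 20 collagens, 4 (20%, against 5.55% of all genes) were higher, among them Col18a1 (92.8 against 25.9) and Col4a3 (43.1 against 11.2). Col14a1 was the 1 lower (72.3 against 288), which is 5% of them against 6.93% of all genes. Of 52 other matrix genes, 2 (3.85%) were higher, the metalloproteinase Mmp19 (2054 against 902, a log2 ratio of 0.98 with rule genes counted at 3000 UMIs) and Fbn2. A further 21 (40.4%) were lower, where over all genes 5.55% were higher and 6.93% lower. Among the lower ones were Mgp, an inhibitor of calcification (391 against 1540.4), Mmp3 (60.0 against 324), Postn (119 against 372) and the hyaluronan synthases Has1 (201 against 666) and Has2 (137 against 427). Markers of adventitial fibroblasts were lower in 3 of 6 cases (50%, against 6.93% of all genes), with Clec3b at 32.6 against 232. The genes of prostaglandin synthesis and reception had 6 of 13 lower (46.2%) and none higher, against 6.93% and 5.55% of all genes. Ptgis stood at 163 against 478 and Ptgs2 at 58.4 against 186. No cell cycle gene of the 11 measured passed 2-fold, a count also near the background.

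The genes with the highest ratios by the naming rule included several of no list. Crtac1, a secreted matrix protein first found in cartilage, stood at 48.1 CPM against 2.54 (18.9-fold, interval 13.5 to 27.1), and in the control library at 14 against 0.64, from 4 and 5 UMIs. Bves, a cAMP-binding membrane protein, stood at 40.2 against 2.21, although 1 cell gave 14.5% of its UMIs. Sh3gl2, an endophilin of vesicle uptake, stood at 21.7 against 1.27 and Gap43 at 12.9 against 1.07. Both are best known from neurons, and the 4 Schwann cell markers summed to 3.08 CPM in members and 1.67 in others, with S100b at 0. Fabp7, a fatty acid carrier, stood at 15.4 against 1.34 and Qprt, an enzyme of NAD synthesis, at 7.2 against 0.27. Scube1, a secreted and surface glycoprotein, was found in 72.3% of members at 148 against 19.8, Atp8a1, a lipid flippase, in 83.3% at 348 against 47.3, and Rgs3, which ends G protein signals, in 48.9% at 104 against 13.5.

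Besides Il6, C3 and Zfpm2, the lower genes by the same rule included Ces1d, Mkx, Mustn1, Ildr2 and Procr. Procr, the endothelial protein C receptor, stood at 52.8 CPM in members against 448, and was lower in the control library as well (21 against 303). Ces1d, a carboxylesterase, stood at 1.71 against 39.6, and Mkx, a homeodomain factor of tendon, at 0.11 from 1 UMI against 8.90 (ratio 0.0128, interval 0.000322 to 0.0727). Mustn1 stood at 0.91 against 19.2, and Ildr2 at 0.46 against 10.4. Ildr2 was higher in control members (31.5 against 10.9), with all 9 UMIs in 1 of the cells with mesothelial markers.

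**Figure D3:**
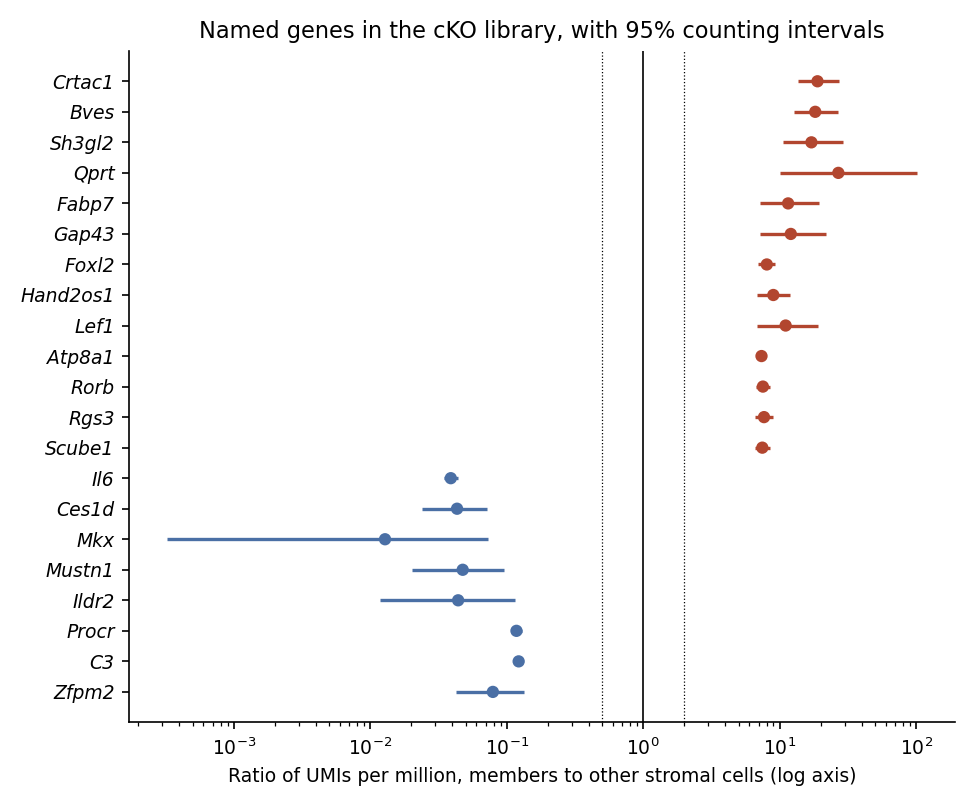
Ratio of CPM, members to other stromal cells of the cKO library (x axis, logarithmic), for genes among the 14 highest (red) and 10 lowest (blue) by the naming rule; points are ratios, bars 95% counting intervals, dotted lines 2-fold. Qprt and Mkx have the widest intervals, and Il6, Procr, C3 and Atp8a1 narrow ones.

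The control library allowed the same comparison on cells of other animals, though with 18 members and 285682 UMIs. Of 317 genes at least 2-fold higher in cKO members and measured in both libraries, the rule genes left out, 147 (46.4%) were at least 2-fold higher in control members than in other control stromal cells, against 10.2% of all 8952 genes measured in both. Of 543 genes lower in cKO members, 210 (38.7%) were at least 2-fold lower in control members, against 14.1% of all. Opposite calls were made for 28 of the higher genes (8.83%, against 14.1% of all genes lower) and for 81 of the lower ones (14.9%, against 10.2% of all genes higher). Without cells with mesothelial markers, a choice made after the values were seen, 137 of 311 higher genes (44.1%) were higher in the 16 remaining control members, against 8.41% of all, and 263 of 509 lower genes (51.7%) were lower, against 17.1% of all. Opposite calls were then made for 35 (11.3%) and 23 (4.52%). Rorb (182 against 8.18 CPM), Atp8a1 (228 against 7.92), Scube1 (59.5 against 4.09), Igf1 (1110 against 248), Col4a3 (70.0 against 5.11) and Aqp1, a water channel (73.5 against 4.09), were higher in members of both libraries. Of these, Rorb had 61.5% and Aqp1 85.7% of its control UMIs in 1 cell. The same rule chose the cells in both libraries, so this comparison is a description too.

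Within the cKO stroma, other genes followed the number of rule genes detected. Foxl2 stood at 4.72 CPM in cells with none, 36.5 in those with 2, 114 in those with 4 and 204 in those with at least 6. Wnt5a went from 16.2 to 175 over the same range, Hoxa11 from 10.9 to 92.8 and Tcf4 from 666 to 2666. Il6 went from 1178 to 1.69, Clec3b from 307 to 6.19 and Igfbp3 from 515 to 20.8. Pgr stayed between 664 and 879 and Esr1 between 134 and 217. The 213 cells just outside the threshold lay between the cells with none and those with 3 rule genes for each of these 9 genes, and Pgr and Esr1 differed least. As the count of rule genes itself is higher in deeper cells, the part of depth in these trends was not tested, but values are in CPM of each bin.

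**Figure D4:**
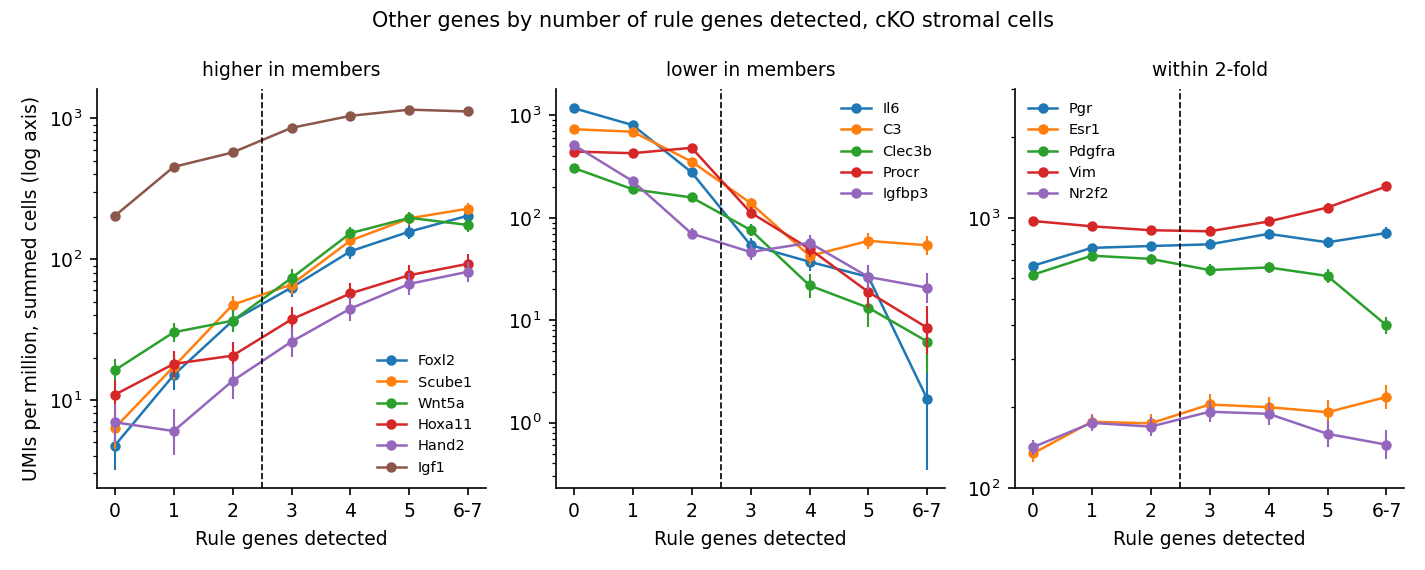
Level in CPM (y axis, logarithmic) of genes outside the rule in cKO stromal cells, by number of rule genes detected (x axis); bars are 95% counting intervals, and the dashed line marks membership. Foxl2, Scube1, Wnt5a, Hoxa11, Hand2 and Igf1 are low at the left and high at the right, Il6, C3, Clec3b, Procr and Igfbp3 the reverse, and Pgr and Esr1 are nearly flat.

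Clustered without the 7 rule genes and the 5 matrix genes, the cKO stromal cells gave 11 clusters, and 1 of them held 190 cells of which 168 were members (88.4%). That cluster held 47.5% of all members, but at Leiden resolution 2 the cluster with most members held 24% of them (85 of 354). The next clusters held 73 members among 193 cells, 39 among 166 and 31 among 126, and 2 clusters held none. Members were thus spread over several clusters, in shares that depend on the resolution. When both libraries were clustered together, a choice made after the values were seen, the leading cluster held 185 cKO and 6 control cells, 162 and 4 of them members. In that joint clustering 4 of 12 clusters were over 90% cKO cells, and the other 3 of these held 77, 49 and 16 cKO members. The clusters with at most 1 cKO member were 14.2% to 74.7% cKO cells.

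**Figure D5:**
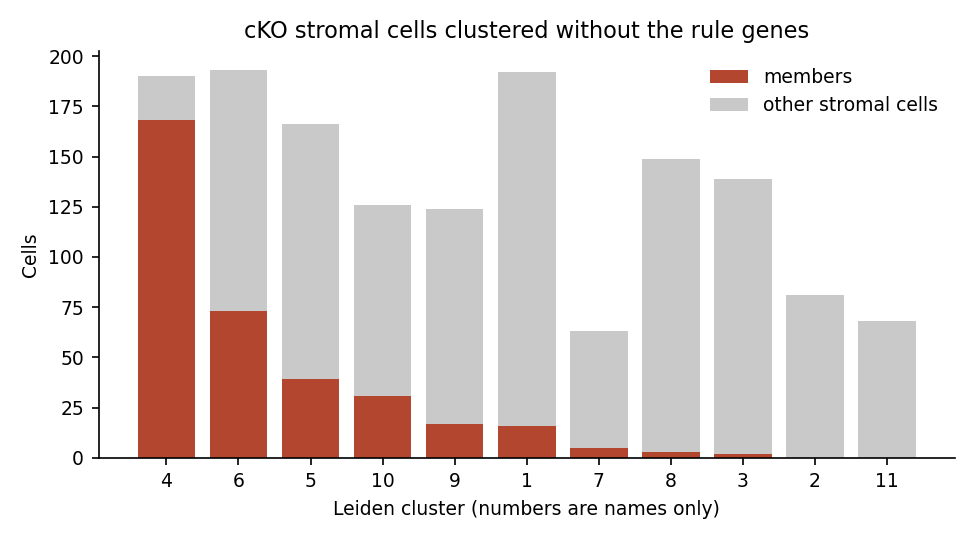
Number of cKO stromal cells (y axis) in each of 11 clusters made without the rule genes (x axis, ordered by members), split into members (red) and other stromal cells (grey). The first bar holds 168 members among 190 cells, and the last 2 bars hold none.

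Members inside the leading cluster and those outside it differed in the rule genes and in others, at median depths of 22378.5 and 19289 UMIs. Inside, Cyp26b1 stood at 327 CPM against 32.8, Nrg2 at 71.6 against 11.9, and Prrx2 at 181 against 45.9, while Dio2 and Aldh1a2 differed less (1219 against 591 and 823 against 366). Genes chosen after their values were seen included S1pr1, a sphingosine phosphate receptor (93.7 against 15.5), Itga6, an integrin subunit (58 against 11), and the lipid enzymes Scd2 (732 against 181) and Fdps (40.1 against 7.73). Outside, Gpr83 stood at 460 against 13.8, Thbd at 897.5 against 87.4 and Mgp at 739 against 59.1. The heat-shock gene Hspa1b stood at 1311 outside and 78.7 inside (956 outside without the 1 cell with most of its UMIs, and found in 79.0% and 56.5%), and Fos at 599.7 and 356, so signs of dissociation moved with this division and their part in it was not tested. Rorb (177 and 141), Hsd11b2 (232 and 300) and Pgr (876 and 798) differed little between the 2 sets.

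Cyp26b1 divided the members further. Of the 95 with a Cyp26b1 UMI, 61.1% also had Nrg2, against 26.3% of the 259 without, while Prrx2 was found in 64.2% and 62.2%. Membership takes 3 of the 7 rule genes, so cells with Cyp26b1 needed 2 others and cells without it 3, and these shares are a description only. Lef1 was 8.01-fold higher in the cells with Cyp26b1 (37.3 against 4.65 CPM, interval 5.23 to 12.6), S1pr1 4.94-fold (128 against 26.0), Crtac1 3.54-fold (98.3 against 27.8) and Bves 3.92-fold. Cells without it had more Alpl (18 against 0.79, the latter from 2 UMIs, ratio 0.0441 with an interval of 0.00528 to 0.163), Sfrp4 (191 against 38.1), Gpr83 (306 against 47.6) and Cilp (115 against 23.8), the last 3 being the genes that define a neighbouring population above. The heat-shock gene Hspa1b summed to 1213 CPM with Cyp26b1 and 464 without it, but was found in 63.2% and 70.3% of these cells. The 1 member with the most Hspa1b UMIs held Cyp26b1, and without that cell, an alternative chosen after seeing the data, the levels were 606 and 464. Hspa1a stood at 617 and 241, and at 346 and 241 without its own highest cell. The part of these genes in the division was not tested. Dio3 was higher in cells without Cyp26b1 (30.6 against 5.95), while Igf1 stood at 1009 without it and 1084 with it. The median depth was 19456 UMIs with Cyp26b1 and 19890 without. Members without a UMI can still hold the transcript, so these are differences between detected and undetected cells.

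The 37 members with Saa3 differed from the rest in other genes, at a median depth of 25809 UMIs against 19426. They had more Saa1 (67.3 against 4.12 CPM), Cxcl10 (198 against 20.4), Cp, the ceruloplasmin gene (86.4 against 8.76), Cxcl5 (463 against 71.5) and the interferon-induced Gbp2 (163 against 25.1). These genes, chosen after their values were seen, stood beside Steap4, a metalloreductase (336 against 44.3), and Fas, a death receptor (89.4 against 23.6). The heat-shock gene Hspa1b summed to 102 CPM with Saa3 and 754 without it, or 556 without the 1 cell with most of its UMIs, but was found in 73.0% and 67.8% of these cells. Its part in this division was not tested. Cyp26b1 was lower in these 37 cells (14.1 against 205 CPM), and 6 of them held it. Both are rule genes, and cells with Saa3 needed 2 others while cells without it needed 3, so this difference is a description only. Without Saa3 in the rule, members were 23.4% of cKO and 2.32% of control stromal cells.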

How the data were processed

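Each library was deposited by the authors as a matrix of UMI counts per gene and barcode, made with Cell Ranger 6.1.1 against mm10 per the submitters' processing notes. The deposited counts were whole numbers, 45035801 in the control library and 57145553 in the cKO library. The file headers name Cell Ranger 4. Aligner settings and strand use are not given in the sources used here. Of barcodes with at least 500 genes and at most 20% mitochondrial UMIs, 3653 and 4950 were kept, and 5 barcode sequences occurred as cells in both libraries, none of them stromal. The 7 rule genes, the members and the gene lists were chosen with earlier results of these data known.

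Counts were summed over cells of a group. Ratios carry exact conditional binomial intervals, CPM exact Poisson intervals and shares exact Clopper-Pearson intervals. A gene was tested for 2-fold with at least 50 UMIs over both groups; a self-check on simulated counts preceded this. Named genes were the 14 highest and 10 lowest by the interval limit nearer to 1, with at least 50 UMIs, detection in at least 5% of cells and a CPM not under that of cell-free barcodes (at most 100 UMIs), with rule, matrix, mitochondrial, ribosomal protein, haemoglobin, immunoglobulin and predicted genes left out. Results of some genes are not reported here. Rule genes and lists were named besides, and genes of the divisions within members after their values were seen. Doublet scores came from Scrublet in scanpy 1.11.5, which removed no cell, and clusters from Leiden (leidenalg 0.10.2, resolution 1, 2000 variable genes, 30 components, 20 neighbours). Positions are from GENCODE for GRCm38 and promoter windows from RefSeq GRCm38.p6. Python 3.11.15, numpy 2.4.6, pandas 2.3.3 and scipy 1.17.1 were used. Alternatives covered cell limits, the number and choice of rule genes, thinning, gene minimums, scaling and cluster resolution.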

Additional observations from a re-analysis of the deposited data

How the results depend on the processing

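No paired analysis was possible because each group is 1 library. The share of stromal cells that were members moved with the rule: in the cKO library it was 19.2% with a matrix minimum of 1%, 38% with 2 rule genes, 15.3% with 4 and 12.8% with rule genes counted at 3000 UMIs per cell. In the control library it was 8.26%, 0.774% and 0.768% under the last 3 of these. The log2 ratio of the shares was 2.20 with 2 rule genes and 4.30 with 4, against 3.35. Genes at least 2-fold higher numbered 302 of 7166 tested with thinned cells and 344 of 8086 with a minimum of 200 UMIs. They numbered 1509 of 16515 with no minimum beyond 1 UMI in each group, against 607 of 10942. Genes at least 2-fold lower numbered 417, 409 and 1869 in the same settings, and 1170 of 12755 with a minimum of 20 UMIs, against 758 of 10942. At Leiden resolution 2 the leading cluster held 24% of members. Of 100 list and named genes of the text past 2-fold, the rule genes left out, all 100 kept their direction and 76 stayed past 2-fold under all 17 alternatives. The other 24 came within 2-fold under at least 1, and their log2 ratios nearest to 0 were as follows. With rule genes counted at 3000 UMIs they were 0.23 for Gli1, -0.84 for Cdon, 0.74 for Dkk3, 0.98 for Htra1, 0.98 for Mmp19, -0.98 for Egr2 and 0.80 for Des. With 2 rule genes they were -0.30 for Acta2, -0.66 for Sfrp4, -0.73 for Frzb, -0.69 for Alpl, -0.63 for Nr4a1, -0.76 for Myc, -0.12 for Ccl8 and -0.95 for Cilp. With thinned cells they were 0.74 for Rarg, -0.75 for Egfr and 0.79 for Runx2. With each cell weighted equally they were 0.67 for Snai1 and -0.92 for Fst. With a matrix minimum of 1% they were 0.94 for Gli2 and -0.96 for Ccl2. Rspo1 stood at -0.66 without cells holding other markers, and Hoxc10 at -0.36 in cells with at least 10000 UMIs. The cause was not tested. Trimmed-mean scaling moved all log2 ratios by 0.03. The cell-free share, estimated from haemoglobin genes and the leukocyte markers other than Ptprc, was 8.05% in members and 1.38% in other stromal cells. Of the 601 Hbb-bs UMIs of members, 600 lay in 1 cell. With 18 control members, genes under about 10 UMIs there have wide intervals.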

Other observations

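Between the 354 cKO members and the 18 control members, several interferon-induced genes were lower in the cKO library, and a few control cells held nearly all of their UMIs. Rsad2 stood at 1.49 CPM in cKO members and 742 in control members, where 1 cell held 172 of 212 UMIs and 4 cells held them all. The same cell held 127 of 157 Ifit1 UMIs, and without it Rsad2 stood at 147.5 and Ifit1 at 111 CPM in control members, against 2.28 for Ifit1 in cKO members. Cxcl10 stood at 40.6 and 1236 CPM, but was found in 14.1% of cKO members and 11.1% of control members, which is 2 cells. That cell was also the 1 control member with Saa3, and it held 99 of the 165 Dio2 UMIs of control members.

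Among genes higher in cKO members, Ctla2a, a cysteine protease inhibitor, stood at 2525 CPM and was found in 95.5% of them, against 133 CPM and 44.4% of control members. Igfbp5, which binds insulin-like growth factors, stood at 555 and 161 CPM. These genes were chosen after their values were seen, and with 1 library per group their differences were not tested.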
